A study of Mus musculus with 56 samples.

Results

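Tissue factor (F3), urokinase plasminogen activator (Plau) and plasminogen activator inhibitor 2 (Serpinb2) were followed in cultured mouse keratinocytes, which build the epidermis, after treatment with transforming growth factor β1 (TGF-β1). They are 3 of 8905 measured features, of which 6795 are named genes, and they were taken by the gene name that the platform annotation gives each probe. They were picked with their responses in these data known, so their responses are described here and support no test. Each gene had 1 probe of its own. In GRCm38.p6, RefSeq places F3 at chr3:121723537-121735052, Plau at chr14:20836662-20843388 and Serpinb2 at chr1:107500892-107525600.

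Each 2-colour array set treated RNA against untreated RNA from matching cells. Ras keratinocytes were Balb/c skin keratinocytes of newborn mice transduced in culture with a replication-defective retrovirus carrying Ha-ras, and primary keratinocytes were the same kind of culture without it. Both were given TGF-β1 at 1 ng/ml for 1, 6, 24 or 48 h. The arrays with treated RNA in Cy5, the red dye, numbered 6, 7, 6 and 4 for ras cells and 6, 7, 6 and 3 for primary cells at these times. A further 5 Balb/c arrays carried the treated RNA in Cy3 and are described apart from the others. The group means come from the Cy5 arrays alone, so in them an effect of the dye on a gene cannot be told apart from its response. Smad3 knockout (Smad3-/-) and wild type (Smad3+/+) keratinocytes of strain C57B1/SVJ, each as ras and primary cultures, were treated at the same dose for 48 h on 6 arrays. Smad3 relays TGF-β receptor signals to the genes it binds. The labels do not say how many animals or cultures the arrays stand for, so their spread may be partly technical.

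F3 is the cell surface receptor for coagulation factor VII, and the pair starts the clotting cascade. It is made in the epidermis, outside blood vessels. Plau is a secreted protease that cuts plasminogen into plasmin, which dissolves fibrin and opens paths through tissue for moving cells. Serpinb2, a member of the clade B serpins, inhibits Plau and is made by keratinocytes. In human cells the promoters of all these genes are known targets of AP-1, the dimer of Fos and Jun proteins that growth factors and ras switch on.

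Values are log2 ratios of treated over untreated RNA after each array was centred on its median, so 1 is a doubling of the treated signal and 0 is no difference. A ratio gives a response and not a level, so the amounts of F3, Plau and Serpinb2 RNA, and the keratinocyte identity of the cultures, cannot be read from it. Because the RNA came from whole cultures, fewer cells of a type and less RNA per cell cannot be told apart. Array medians lay between -0.16 and 0.018 before centring. The spread of an array's values (SD) ran between 0.191 and 1.81 and was widest on ras 24 h replicate 1 and next widest on primary 6 h replicate 1.

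The RefSeq promoter table (GRCm38.p6) held F3 and Serpinb2. The windows shown run 250 bases before to 50 bases after the annotated start, on the plus strand, at chr3:121723287-121723586 for F3 and chr1:107511173-107511472 for Serpinb2. They are printed as the start regions of the genes described here, and capitals mark the AP-1 letters TGANTCA.
F3 promoter: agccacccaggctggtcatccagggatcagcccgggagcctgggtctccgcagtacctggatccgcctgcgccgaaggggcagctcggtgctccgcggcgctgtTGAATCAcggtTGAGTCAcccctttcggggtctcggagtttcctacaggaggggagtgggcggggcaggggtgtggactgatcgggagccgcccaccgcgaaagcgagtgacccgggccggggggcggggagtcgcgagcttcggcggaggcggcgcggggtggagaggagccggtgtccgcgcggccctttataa
Serpinb2 promoter: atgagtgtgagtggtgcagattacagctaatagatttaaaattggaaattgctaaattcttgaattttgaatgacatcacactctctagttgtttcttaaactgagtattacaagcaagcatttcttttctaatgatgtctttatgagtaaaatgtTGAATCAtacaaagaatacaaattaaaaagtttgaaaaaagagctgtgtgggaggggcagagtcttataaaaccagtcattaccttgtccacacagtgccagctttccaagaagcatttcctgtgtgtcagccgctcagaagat

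The F3 window held the AP-1 letters at -146 and -135, counted from the start, and the Serpinb2 window held them at -94. Both strands were searched, and 7.81% of 32851 RefSeq mouse promoter windows of this length, those of chromosome 18 left out, held the same letters. The F3 window also held the SP1 letters GGGCGG at 3 places (-89, -58 and -24), which 35.7% of windows contain at least at 1 place. TATAAA stood at -29 in the Serpinb2 window and on the minus strand at 44 in the F3 window, and 13.6% of windows hold it. The SMAD letters CAGAC, present in 49.6% of windows, were in neither. The F3 window was 70.3% G and C, against 35.3% in the Serpinb2 window and a median of 52.7% over all windows. A second RefSeq window of Serpinb2, chr1:107511260-107511559, overlaps the first and holds the same AP-1 and TATAAA letters. Both Serpinb2 windows lie within the gene's span given above, at transcript starts after its first base.

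The F3 ratio was above 0 within the first hours in ras cells. At 1 h its log2 ratio in ras cells was 0.64 at the lowest, 1.38 at the median and 1.72 at the highest array, with a mean of 1.22 ± 0.46 (SD, n = 6). In primary cells at 1 h it was 0.11 at the lowest, 0.63 at the median and 0.85 at the highest array, with a mean of 0.58 ± 0.29 (SD, n = 6). All 12 arrays of this time were above 0, as for 3.76% of all features on the ras arrays and 2.35% on the primary arrays, and the ranges of both cell types overlapped.

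At 6 h F3 was at its highest mean in ras cells and was uneven in primary cells. In ras cells it was 0.12 at the lowest, 1.33 at the median and 2.55 at the highest array, with a mean of 1.41 ± 0.79 (SD, n = 7), a treated over untreated ratio of 2.67. In primary cells it was -1.83 at the lowest, 0.64 at the median and 0.91 at the highest array, with a mean of 0.23 ± 0.99 (SD, n = 7). All 7 ras arrays and 5 of 7 primary arrays were above 0, and 4.27% of all features were above 0 on all 7 ras arrays. Ordered by mean response from the top, F3 stood at place 6 of 8905 features in ras cells at 6 h and at place 799 in primary cells.

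At 24 h the sign of the F3 response in ras cells was opposite to that at 6 h. In ras cells it was -1.45 at the lowest, -0.38 at the median and -0.25 at the highest array, with a mean of -0.54 ± 0.46 (SD, n = 6). In primary cells it was 0.30 at the lowest, 0.80 at the median and 1.15 at the highest array, with a mean of 0.79 ± 0.32 (SD, n = 6). Every ras array was below 0 and every primary array above it, so the arrays of the cell types did not overlap. Of all features, 6.08% were below 0 on all 6 ras arrays and 3.69% above 0 on all 6 primary arrays. Over all features, 0.146% had every ras array below every primary array at 24 h. F3 was read on 1 ras array, replicate 5, at -1.45, away from the others, and without it the ras mean was -0.35.

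At 48 h F3 was above 0 again in ras cells. The 4 ras arrays gave 1.21, 0.35, 1.40 and 0.38, with a mean of 0.84 ± 0.55 (SD, n = 4). The 3 primary arrays gave 0.97, 1.04 and 0.88, with a mean of 0.96 ± 0.077 (SD, n = 3). The primary values lay inside the range of the ras values. The ras series thus went through means of 1.22, 1.41, -0.54 and 0.84 at 1, 6, 24 and 48 h, and the primary series through 0.58, 0.23, 0.79 and 0.96. Neighbouring means of the primary series differed by less than the SD of one or both groups, and so did those of the ras series at 1 and 6 h.

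**Figure D1:**
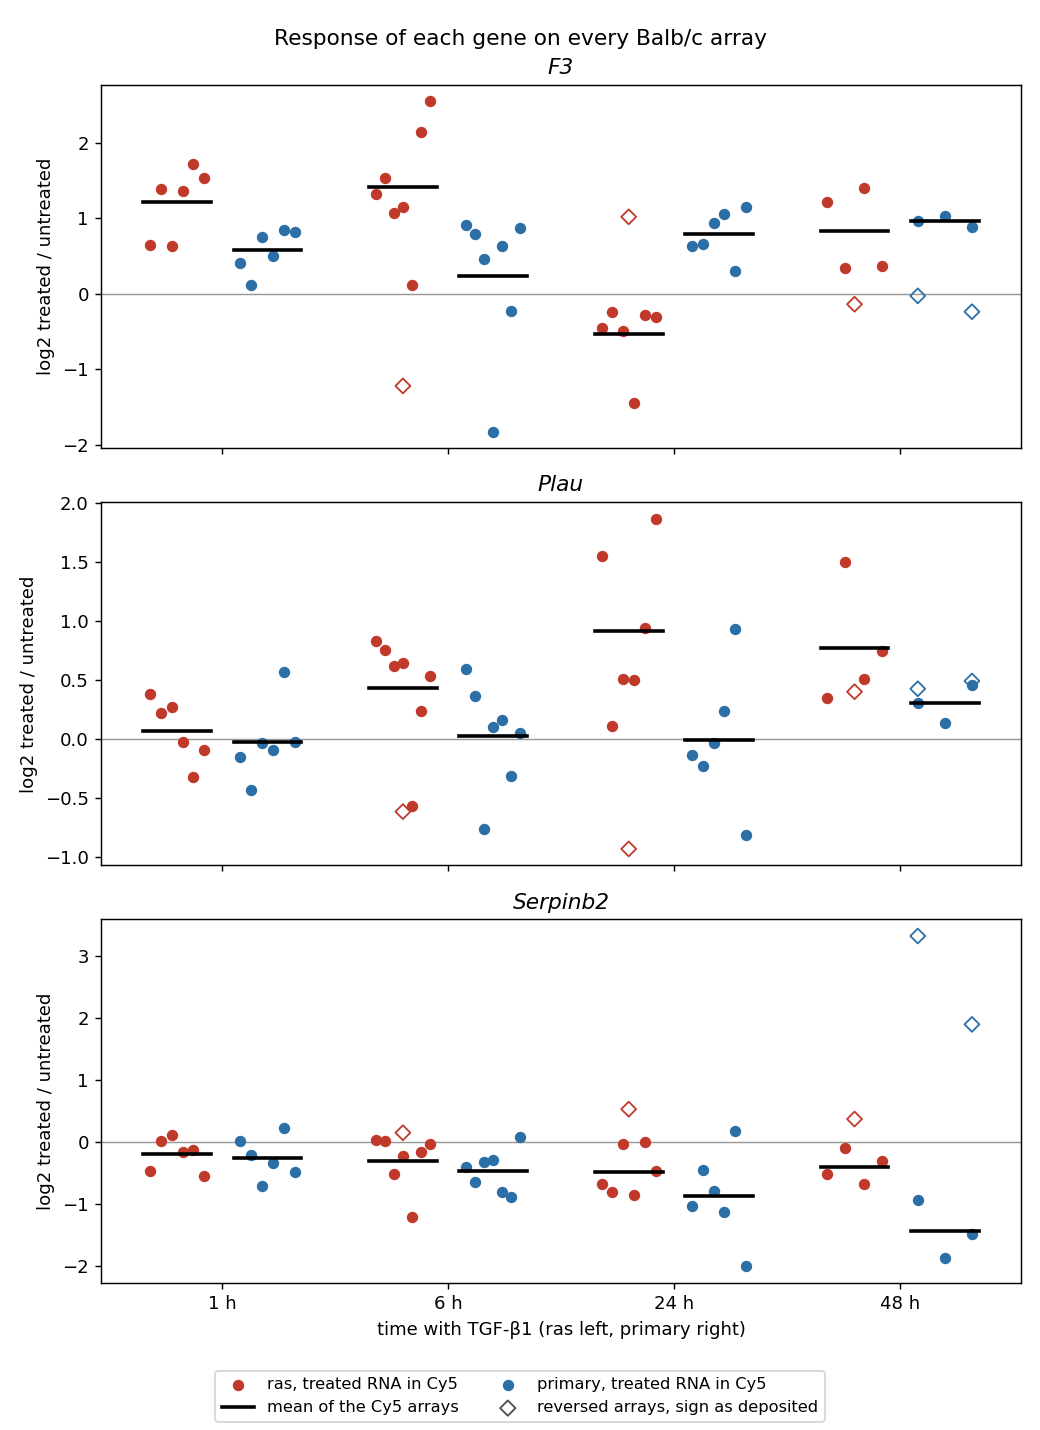
Log2 treated over untreated ratio (vertical axes) of F3, Plau and Serpinb2 on every Balb/c array by hours with TGF-β1 (horizontal axis), ras left of primary at each time. Filled points are arrays with treated RNA in Cy5, bars are their means, and open diamonds are the arrays with reversed dyes at the sign deposited. Among Cy5 arrays, F3 in ras cells is above 0 at 1, 6 and 48 h and below 0 on all 6 arrays at 24 h.

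The change between 6 and 24 h in ras cells was the largest step of F3 in the course. Arrays of 24 h lay between -1.45 and -0.25, against 0.12 to 2.55 at 6 h, with no overlap, as for 0.281% of all features with 24 h lower. The difference of the means was -1.95 (SE 0.33, 95% interval -2.62 to -1.28) in ras cells and 0.56 (SE 0.33, 95% interval -0.11 to 1.22) in primary cells. Of all features, 0.236% passed an adjusted p of 0.05 for this step in ras cells and 0.0561% in primary cells (limma, Benjamini-Hochberg). F3 was among those in ras cells, from which nothing is read, since it was chosen on these responses.

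In Balb/c ras cells the mean Plau response came later than that of F3. The Plau mean of Balb/c cells was higher in ras than in primary cells, most so at 24 h. At 1 h its mean was 0.071 ± 0.27 (SD, n = 6) in ras cells and -0.031 ± 0.33 (SD, n = 6) in primary cells, with arrays on both sides of 0. At 6 h it was -0.57 at the lowest, 0.62 at the median and 0.83 at the highest array in ras cells, with a mean of 0.44 ± 0.48 (SD, n = 7). In primary cells at 6 h it was -0.76 at the lowest, 0.10 at the median and 0.59 at the highest array, with a mean of 0.026 ± 0.45 (SD, n = 7). Thus 6 of 7 ras arrays and 5 of 7 primary arrays were above 0, and the groups overlapped.

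By 24 h Plau was above 0 on all 6 ras arrays, as were 5.64% of all features. In ras cells it was 0.11 at the lowest, 0.73 at the median and 1.87 at the highest array, with a mean of 0.91 ± 0.68 (SD, n = 6), a treated over untreated ratio of 1.88. In primary cells it was -0.82 at the lowest, -0.087 at the median and 0.93 at the highest array, with a mean of -0.0088 ± 0.58 (SD, n = 6). Only 2 of 6 primary arrays were above 0, and their highest exceeded the ras median. In the order of mean responses Plau stood at place 30 of 8905 in ras cells at 24 h and at place 4310 in primary cells.

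At 48 h the 4 ras arrays gave 0.35, 1.498, 0.50 and 0.75 for Plau, with a mean of 0.78 ± 0.51 (SD, n = 4). The 3 primary arrays gave 0.31, 0.14 and 0.46, with a mean of 0.30 ± 0.16 (SD, n = 3). All 7 values were above 0, as for 14.5% of all features on the 4 ras arrays and 24.5% on the 3 primary arrays, and the lowest ras array fell inside the range of the primary arrays. The ras means of 24 and 48 h, 0.91 and 0.78, differed by less than the SD of either group.

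Serpinb2, the inhibitor, ran in the other direction and further in primary cells. At 1 h its mean was -0.20 ± 0.26 (SD, n = 6) in ras cells and -0.26 ± 0.34 (SD, n = 6) in primary cells. At 6 h it was -0.31 ± 0.45 (SD, n = 7) in ras cells and -0.48 ± 0.34 (SD, n = 7) in primary cells. At 6 h, 5 of 7 ras arrays and 6 of 7 primary arrays were below 0, with values between -1.22 and 0.030 in ras cells and between -0.90 and 0.073 in primary cells.

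At 24 h Serpinb2 was below 0 on all 6 ras arrays, among the 6.08% of features given above, and on 5 of 6 primary arrays. In ras cells it was -0.86 at the lowest, -0.59 at the median and -0.015 at the highest array, with a mean of -0.48 ± 0.38 (SD, n = 6). In primary cells it was -2.01 at the lowest, -0.91 at the median and 0.17 at the highest array, with a mean of -0.88 ± 0.73 (SD, n = 6). The groups overlapped, and the primary arrays were the more scattered.

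At 48 h the Serpinb2 arrays of the cell types stood apart. The 4 ras arrays gave -0.53, -0.10, -0.69 and -0.31, with a mean of -0.41 ± 0.26 (SD, n = 4). The 3 primary arrays gave -0.95, -1.88 and -1.497, with a mean of -1.44 ± 0.47 (SD, n = 3), a treated over untreated ratio of 0.368. Every ras array was above every primary array, as for 1.93% of all features at 48 h. All 7 values were below 0, as for 15.1% of all features on the ras arrays and 23.4% on the primary arrays.

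In the fit across all features (limma, Benjamini-Hochberg over 8905), 1 of the 3 genes passed an adjusted p of 0.05 in ras cells at 1, 6 and 24 h and none at 48 h, where 0.0786%, 1.72%, 10.5% and 3.56% of all features passed. These were F3 at 1 and 6 h and Plau at 24 h, each with the positive sign. In primary cells 0 of 3 passed at 1 and 6 h and 1 of 3, Serpinb2 with the negative sign, at 24 and 48 h, where 0.0112%, 0.0112%, 1.35% and 8.64% of all features passed. The genes had been chosen on these responses, so nothing is read from these counts. The number of features that passed hung on single arrays. It was 939 in ras cells at 24 h but 276 without replicate 1, and 317 at 48 h but 55 without replicate 1, 103 without replicate 3 and 498 without replicate 4. In ras cells at 6 h it was 153, and 62 to 101 without replicate 1, 2, 3, 7 or 8, and at 1 h it was 7, and 0 to 2 without replicate 2, 4, 5 or 6. In primary cells it was 769 at 48 h but 441 without replicate 1 and 277 without replicate 2, and 120 at 24 h but 60 without replicate 6. F3 in ras cells at 1 h passed in 2 of the 6 fits that left out 1 of its arrays. It did not pass without replicate 2, 4, 5 or 6. Serpinb2 in primary cells at 24 h did not pass without replicate 6.

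Set against each other, the responses of ras and primary cells differed most for F3 at 6 and 24 h and for Serpinb2 at 48 h. The ras mean minus the primary mean of F3 was 0.64 at 1 h, 1.18 at 6 h, -1.33 at 24 h and -0.13 at 48 h, with 95% intervals of -0.052 to 1.33, 0.54 to 1.82, -2.02 to -0.64 and -1.04 to 0.79. For Plau it was 0.10, 0.41, 0.92 and 0.47 at these times, and the 95% interval lay above 0 at 24 h only (0.37 to 1.47). For Serpinb2 it was 0.054, 0.17, 0.39 and 1.03, with an interval above 0 at 48 h only (0.37 to 1.69). None of the 12 differences passed an adjusted p of 0.05 in limma, where 0, 0, 0.0449% and 0.202% of all features passed at 1, 6, 24 and 48 h. At an unadjusted p under 0.05 there were 371, 402, 918 and 596 features. With limma's robust regression F3 and Plau at 24 h and Serpinb2 at 48 h passed, with array weights F3 at 6 and 24 h, and with the reversed arrays turned, with or without a dye term, Serpinb2 at 48 h. Nothing is read from these calls either, since the genes were chosen for these values.

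The arrays carry experiment numbers of the authors' array database, and gaps over 200 in these numbers split them into 11 runs, several of which hold both cell types. Within runs, F3 at 24 h was lower in ras than in primary cells in 5 of 5, by differences between -2.51 and -0.58. Since the F3 arrays of the cell types did not overlap at 24 h, this sign had to appear in every run and is no separate check. At 6 h it was higher in ras cells in 4 of 5 runs, with differences between -0.52 and 2.37. At 6 h, where the arrays of the cell types overlapped, the sign of the pooled F3 difference was thus present within runs with 1 exception.

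Plau at 24 h was higher in ras cells in 5 of 5 runs, with differences between 0.0050 and 2.68, and at 48 h in 3 of 3 runs, between 0.29 and 0.62. Serpinb2 at 48 h was higher in ras cells in 3 of 3 runs, between 0.63 and 1.19. This too had to be so, since every ras array was above every primary array, and it is no separate check. At 24 h its sign varied between runs, with ras higher in 3 of 5.

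**Figure D2:**
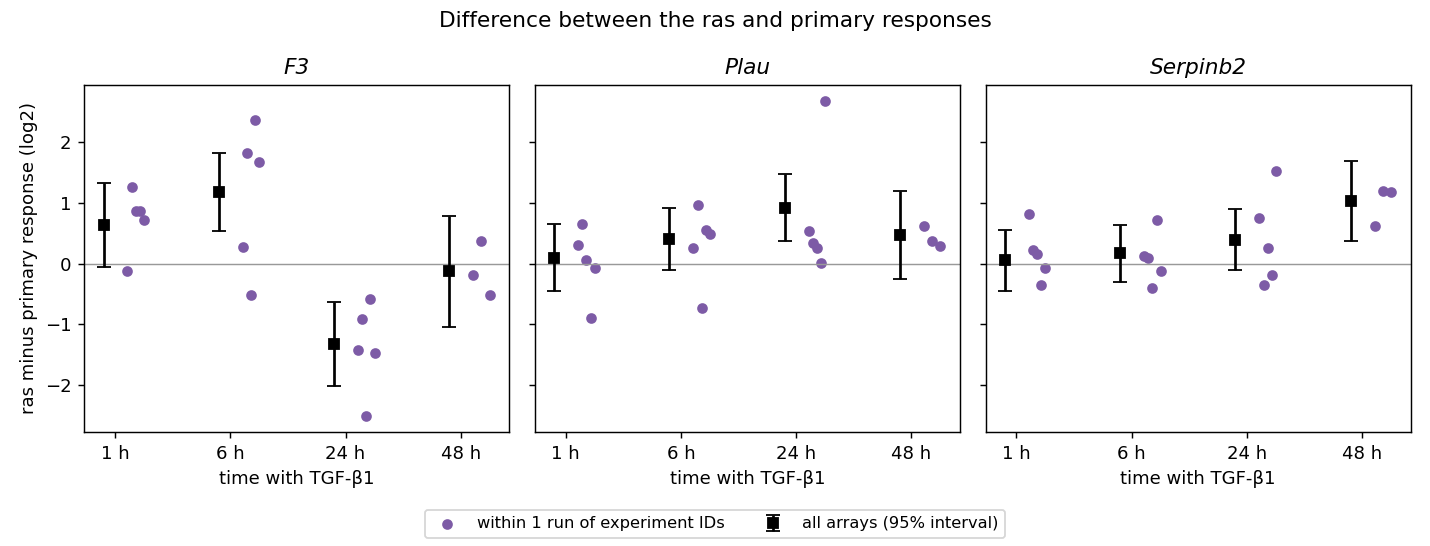
Difference of the log2 response, ras minus primary (vertical axis), by hours with TGF-β1 (horizontal axis) for each gene. Black squares with bars are the means over all Cy5 arrays with 95% intervals, and purple points are differences within 1 run of experiment numbers. The points of F3 at 24 h are below 0 in all 5 runs, as they must be where the arrays of the cell types do not overlap.

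The 5 Balb/c arrays with treated RNA in Cy3 were kept out of all these means, because the sources used here do not say whether their ratios had been turned before deposit. As deposited, F3 on them was -1.22 in ras cells at 6 h, 1.02 in ras cells at 24 h, -0.14 in ras cells at 48 h, and -0.026 and -0.24 in primary cells at 48 h. Serpinb2 on the same arrays was 0.14, 0.52, 0.36, 3.32 and 1.89, and Plau was -0.62, -0.94, 0.40, 0.43 and 0.49. F3 and Serpinb2 thus had the sign opposite to their group mean on 5 of 5 of these arrays, and Plau on 2 of 5, those of 6 and 24 h.

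Over all features each of these arrays correlated with the mean of its own group by an r between -0.065 and 0.13, across genes that are not independent replicates. Over the features that passed in its group, r was -0.79 for the ras 6 h array, -0.10 for ras 24 h, 0.074 for ras 48 h, and -0.36 and -0.35 for the primary 48 h arrays. The share of those features with the sign opposite to the group was 93.5%, 46% and 40.4% on the ras arrays and 58% and 61.9% on the primary arrays. On the primary arrays Timp1 was -1.89 and -1.07, Mmp9 -3.15 and -1.35 and F2r -0.64 and -1.21, where their group means were 2.67, 2.74 and 1.55. Other genes that passed there did not run opposite on both arrays. F10 was -7.65 and -0.18, with a group mean of -1.76. Vkorc1 was 0.43 and -0.16 and Anxa5 0.12 and -0.078, with group means of 0.80 and 0.92.

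Of the features that passed in the group, 93.5% thus ran opposite to it as deposited on the ras 6 h array. On the primary 48 h arrays 58% and 61.9% did. On the ras 24 h and 48 h arrays r was near 0. The features behind that r hung on replicate 1 of each group. They numbered 939 at 24 h but 276 without it, and 317 at 48 h but 55 without it. The features behind the shares of the other arrays hung on single arrays too. In ras cells at 6 h they numbered 153 but 62 without replicate 8. In primary cells at 48 h they numbered 769 but 277 without replicate 2. An r near 0 over such features cannot decide a sign, so no single sign was settled for the 5 arrays. With the sign turned, F3 would be 1.22 on the ras 6 h array, and Serpinb2 would be -3.32 and -1.89 on the primary arrays. Counted as deposited, they brought the primary 48 h mean of Serpinb2 to 0.18 and that of F3 to 0.53. Counted with the sign turned, they brought that of F3 to 0.63 and that of Plau to -0.0030.

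A second probe is listed for both Xpo1 and F3 and was not used for F3. Its means lay between -0.18 and -0.020 in both cell types at 1, 6 and 24 h, and at 48 h it was 0.41 ± 0.26 in ras cells (SD, n = 4) and 0.37 ± 0.12 in primary cells (SD, n = 3). It did not carry the F3 pattern of 1, 6 and 24 h, and which of its listed genes it measures cannot be told here.

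The Smad3 arrays compare the 48 h response of cells without and with Smad3. Only 1 array with treated RNA in Cy5 was made for each genotype and cell type, so there is no replicate check and no test. The ratio of treated to untreated cells within a knockout culture does not check the knockout itself.

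In primary cells F3 was 0.89 in Smad3 knockout and 1.70 in wild type cells, and in ras cells it was 0.42 in knockout and -0.34 in wild type cells. The knockout value was the lower in primary cells and the higher in ras cells, with knockout minus wild type differences of -0.81 and 0.75. Among the same difference of all features these lay at percentiles 12.7 and 93.9.

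Plau was 0.46 in knockout and 0.85 in wild type primary cells, and 0.85 in knockout and 1.00 in wild type ras cells. Its differences, -0.39 and -0.15, lay at percentiles 26.8 and 34.5 of all features. Serpinb2 was 1.22 in knockout and 0.89 in wild type primary cells, and 0.52 in knockout and 0.21 in wild type ras cells. Its differences, 0.33 and 0.31, lay at percentiles 72.2 and 75.9. None of these percentiles was below 12.7 or above 93.9, so larger differences between these single arrays were common among other features.

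The second, reversed knockout arrays gave as deposited 0.59 for F3, 0.39 for Plau and 0.36 for Serpinb2 in ras cells. In primary cells they gave 0.29 for F3, 0.33 for Plau and 0.072 for Serpinb2. Their signs matched those of the other knockout array for all 3 genes. Over all features they correlated with that array by an r of 0.41 in ras and 0.48 in primary cells.

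On arrays with treated RNA in Cy5, Serpinb2 was above 0 on all 4 Smad3 arrays, knockout and wild type, and below 0 on all 7 Balb/c arrays of the same time and dose. As deposited, the reversed arrays were above 0 in both sets, on 2 of 2 knockout and 3 of 3 Balb/c arrays, and with the sign turned all 5 would be below 0. Strain, array run and genetic background change together between these sets and cannot be told apart. Plau as deposited was above 0 on every array of both sets.

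**Figure D3:**
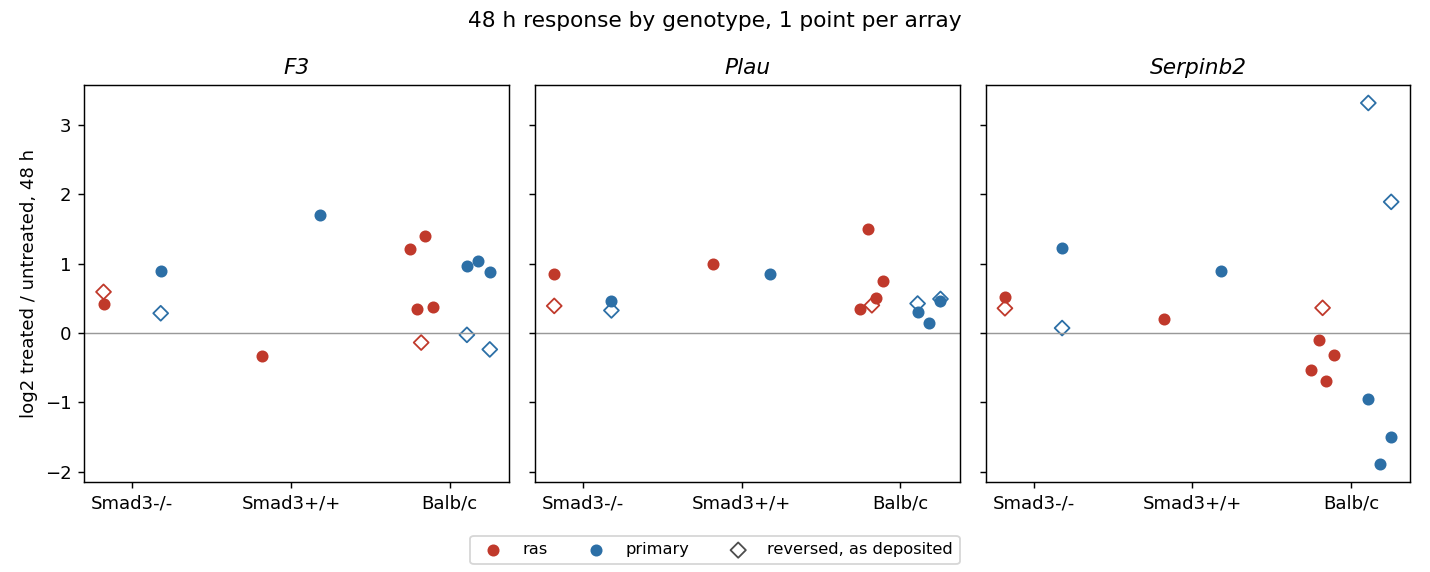
Log2 treated over untreated ratio at 48 h (vertical axis) for F3, Plau and Serpinb2 in Smad3 knockout, Smad3 wild type and Balb/c cells (horizontal axis), 1 point per array, with reversed arrays as open diamonds at the sign deposited. Among Cy5 arrays, Serpinb2 is above 0 on all 4 Smad3 arrays and below 0 on all 7 Balb/c arrays.

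The partners of these genes were read from 2 lists chosen by known role, the plasminogen system (17 of 27 listed genes other than Plau and Serpinb2 measured) and the coagulation and tissue factor pathway (23 of 33 other than F3). Serpine2 and F2rl1 were not analysed here. Of these 40 genes, in ras cells 0 passed at 1 h, 1 at 6 h, 3 at 24 h and 1 at 48 h, against the shares of all features given above, and in primary cells 0, 0, 0 and 8 passed. The lists were chosen with earlier results of these data known, and their p-values come from the limma fit with Benjamini-Hochberg adjustment over all 8905 features. When each group was fitted on its own arrays alone, 0 of these 13 calls were made, so all 13 rest on the spread pooled over the groups. At an unadjusted p under 0.05, those separate limma fits had 0, 4, 4 and 10 of the 40 genes in ras cells and 3, 1, 3 and 14 in primary cells at 1, 6, 24 and 48 h. Over all features they called 0, 133, 3 and 0 in ras cells and 0, 0, 11 and 0 in primary cells. The pooled fit had 4, 3, 6 and 11 of the 40 genes at an unadjusted p under 0.05 in ras cells and 0, 4, 4 and 12 in primary cells. Of all features, 7.04%, 12%, 24.6% and 18.8% were below that p in ras cells and 5.39%, 9.41%, 10.1% and 22.1% in primary cells.

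Among receptors, Plaur, the cell surface anchor of urokinase, rose in primary cells at 48 h by 1.25 (SE 0.29, adjusted p = 0.00406), on arrays of 1.41, 2.16 and 0.19. In ras cells at 48 h its 4 arrays were 0.38, 0.90, 1.85 and -0.10, a mean of 0.76 that did not pass (adjusted p = 0.0810). The primary call was lost without replicate 1 or replicate 2, with an adjusted p of up to 0.268, and without replicate 2 the mean was 0.80. Lrp1, which takes up protease and inhibitor complexes, rose in primary cells at 48 h by 1.23 (SE 0.30, adjusted p = 0.00654), on arrays of 1.52, 1.31 and 0.87. That call too was lost without replicate 1 or 2. Of the 17 genes of the plasminogen list, 9 were above 0 in primary cells at 48 h with a median of 0.10, against -0.042 over all features.

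Of the substrate and the other activator, Plg, which encodes plasminogen, fell by 1.44 in primary cells at 48 h (SE 0.43, adjusted p = 0.0286), on arrays of -3.63, -0.79 and 0.090. Without replicate 1 its mean was -0.35, and the call was lost without that array or without replicate 2. Plat, tissue plasminogen activator, passed in no group, with 0.85, 0.65 and -0.063 on the primary arrays of 48 h and 0.28, -0.79, -0.074 and -0.98 on the ras arrays. In ras cells 0 genes of the plasminogen list passed in limma at any time, and 1, 1, 1 and 4 had an unadjusted p under 0.05 at 1, 6, 24 and 48 h.

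Of the thrombin receptors, F2r, the protease activated receptor that thrombin cuts, rose in primary cells at 48 h by 1.55 (SE 0.30, adjusted p = 0.000451). Its 3 arrays were 1.60, 1.56 and 1.499, and the call held when any of them was left out. In ras cells its 4 arrays were 1.12, -0.081, 0.75 and 0.35, with a mean of 0.53 that did not pass (adjusted p = 0.248). The difference of -1.02 between the cell types did not pass either (adjusted p = 0.456).

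On the anticoagulant side, Procr, the endothelial protein C receptor, rose in ras cells at 6 h by 0.54 (SE 0.13, adjusted p = 0.0211) and was above 0 on 7 of 7 arrays, of which 5 were each needed for the call. Anxa5, which binds the phospholipid on which clotting factors assemble, rose in ras cells at 24 h by 0.55 and at 48 h by 1.06 (adjusted p = 0.00331), with 1.15, 1.15, 1.11 and 0.85 on the 4 arrays of 48 h. It rose also in primary cells at 48 h by 0.92 (adjusted p = 0.0126). Of these Anxa5 calls, that of ras cells at 48 h held without any 1 array, that of ras cells at 24 h was lost without replicate 1, 6 or 7, and that of primary cells without replicate 1 or 2. Tfpi, the inhibitor of the F3 and factor VII complex, and Thbd, the thrombin receptor that turns thrombin towards protein C, passed in no group. At 24 h in ras cells, where F3 was below 0, Tfpi averaged -1.65 ± 3.12 (SD, n = 6), or -0.40 without replicate 1 at -7.87, and the Thbd arrays lay between -0.16 and 0.24.

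Of the genes that make or carry clotting factors, Vkorc1, which recycles the vitamin K needed for their maturation, rose in ras cells at 24 h by 0.42 and in primary cells at 48 h by 0.80 (adjusted p = 0.00356). Lman1, which carries factors V and VIII out of the endoplasmic reticulum, rose in primary cells at 48 h by 0.67 (adjusted p = 0.0309). F10, coagulation factor X, fell by 1.76 in primary cells at 48 h, with an SD of 1.95 over arrays between -3.96 and -0.23. F13a1, the fibrin cross-linking factor, fell by 2.39 in ras cells at 24 h, with an SD of 3.80 and a lowest array of -9.72. The F13a1 call was lost without ras 24 h replicate 1, where its mean was -0.93, and the F10 call without primary 48 h replicate 1, where its mean was -0.66. The Lman1 call was lost without any 1 of its 3 arrays, that of Vkorc1 in ras cells without replicate 1, 3 or 6, and that of Vkorc1 in primary cells with none. Over the 23 coagulation genes the median was 0.039 in ras cells at 24 h and -0.017 in primary cells at 48 h, against 0.010 and -0.042 over all features.

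**Figure D4:**
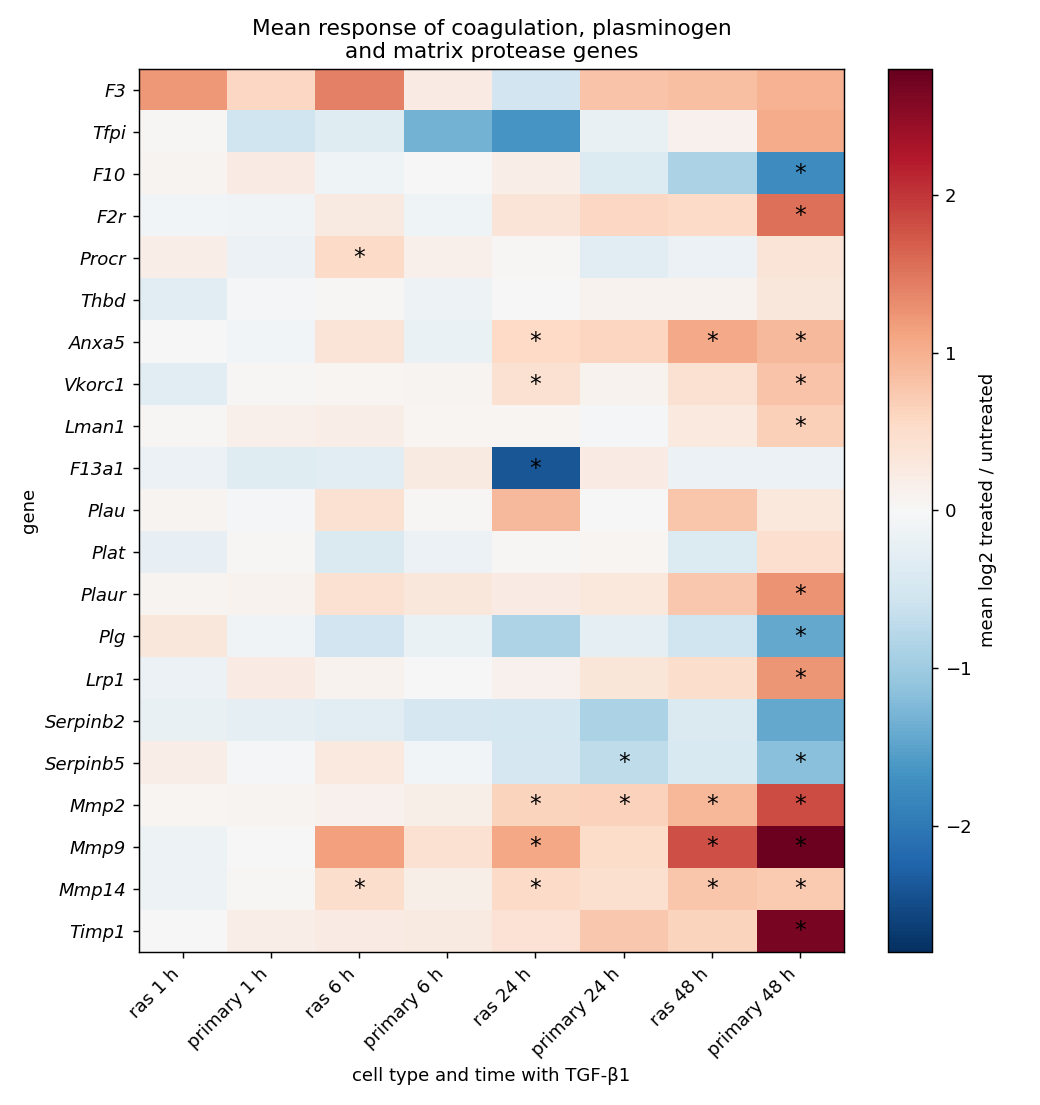
Mean log2 treated over untreated ratio by cell type and time (columns) for F3, Plau, Serpinb2 and most genes named from the lists of partners and matrix proteases (rows), in colour. An asterisk marks a value that passed an adjusted p of 0.05 in limma and is not drawn for F3, Plau and Serpinb2. The primary 48 h column holds 8 of the 13 asterisks of the plasminogen and coagulation lists.

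Of 4 other clade B serpins measured, of 22 listed, Serpinb5 (maspin) passed. It fell by 0.72 in primary cells at 24 h (adjusted p = 0.0137), below 0 on 6 of 6 arrays, and at 48 h by 1.17 (adjusted p = 0.000842), on arrays of -0.66, -2.20 and -0.65. In ras cells at 24 h its mean was -0.47 and did not pass. The call at 48 h was lost without primary replicate 2, where the mean was -0.65, and that at 24 h without primary replicate 1 or 6.

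Plasmin activates several matrix metalloproteases, and 11 of 22 listed matrix proteases and their inhibitors were measured. In ras cells 0, 2, 3 and 3 rose at 1, 6, 24 and 48 h, and in primary cells 0, 0, 1 and 5, while 0 passed as lower in limma. At an unadjusted p under 0.05 in either direction there were 0, 3, 5 and 4 in ras cells and 0, 0, 5 and 6 in primary cells. Of all features 0.0786%, 1.72%, 10.5% and 3.56% passed in ras cells and 0.0112%, 0.0112%, 1.35% and 8.64% in primary cells. Those of ras cells at 6 h were Mmp14, by 0.49, and Reck, an inhibitor of matrix proteases, with a mean of 1.75. Reck had arrays of 5.47 and 5.80 but a median of 0.47, with 3 of 7 arrays below 0, and its mean was 1.13 without replicate 1 and 1.07 without replicate 2. Mmp9, a gelatinase, rose by 1.08 in ras cells at 24 h, by 1.81 in ras cells at 48 h and by 2.74 (adjusted p = 0.000387) in primary cells at 48 h. Mmp2, the other gelatinase, rose by 0.93 in ras cells and by 1.83 in primary cells at 48 h, and Mmp14, a membrane protease that activates Mmp2, rose by 0.77 in ras cells and by 0.73 in primary cells at 48 h. Mmp12, an elastase, rose by 0.97 in primary cells at 48 h, or 0.54 without replicate 2. Without replicate 3, Mmp9 in ras cells at 48 h was 0.92. Timp1, an inhibitor of matrix metalloproteases, rose by 2.67 in primary cells at 48 h, and its ras minus primary difference of -2.06 passed (limma, adjusted p = 0.0334). Mmp2, Mmp9 and Timp1 in primary cells at 48 h and Mmp2 in ras cells at 24 h passed without any 1 array, and each other call of the list was lost without at least 1. The Timp1 difference was lost without any of 4 arrays: ras 48 h replicate 2 or 4, or primary 48 h replicate 1 or 2.

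Of 10 AP-1, EGR and ETS factors measured, of 18 listed, 1 passed in any group, the early growth response factor Egr3. It fell by 0.68 in ras cells at 24 h (adjusted p = 0.0216) and was below 0 on 6 of 6 arrays. It was also low where F3 was above 0, with means that did not pass of -0.62 in ras cells at 6 h, below 0 on 7 of 7 arrays, and -0.66 in primary cells at 24 h. The Egr3 call was lost without ras 24 h replicate 1 or 6. The highest mean of the list was that of another factor, 2.39 in ras cells at 1 h, which did not pass. In primary cells at 1 h the highest mean of the list was 0.79, which did not pass either. At an unadjusted p under 0.05 in limma there were 1, 2, 2 and 2 of these factors in ras cells and 1, 2, 3 and 4 in primary cells at 1, 6, 24 and 48 h, against the shares of all features given above for that threshold.

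Markers of other cell types moved in the cultures in which Serpinb2, F2r and Plaur stood out. In primary cells at 48 h, 4 of 12 myeloid markers rose (Lyz2 by 2.59, Ctss by 1.69, Tyrobp by 1.01 and Fcer1g by 0.77) with a list median of 0.57, where 8.64% of all features passed. In the same cells 2 of 9 fibroblast markers rose (Col1a2 by 1.83 and Mfap5 by 1.77), while 4 of 12 keratinocyte markers fell (Krt10 by 1.31, Krt16 by 1.18, Krt15 by 1.02 and Trp63 by 1.00) with a list median of -0.40. Krt16 was below 0 on 1 of 3 arrays, replicate 2 at -3.70, and its mean without it was 0.089. Without the same replicate Krt15 was -0.59 and Fcer1g 0.46. In ras cells at 48 h the myeloid median was -0.033, the fibroblast median 0.13 and the keratinocyte median -0.018, with 1 myeloid marker up (Lyz2, by 0.96) and 1 keratinocyte marker down (Krt10, at -0.96, or -0.55 without replicate 3). The ras minus primary difference at 48 h passed for Lyz2 (-1.63) and Mfap5 (-1.44), and both were lost without ras replicate 2 or 4 or primary replicate 2. In primary cells at 24 h Lyz2 rose by 0.92. Of the primary 48 h calls, those of Lyz2, Ctss, Mfap5 and Trp63 held without any 1 array, and the others were lost without at least 1. Of 8 endothelial and 4 platelet markers, 0 passed in any group in limma, and at most 3 and 2 of them had an unadjusted p under 0.05 in 1 group, ras cells at 24 h. The part of these cells in the responses of the 3 genes was not tested.

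Markers also moved in ras cells at 24 h, where F3 was below 0 and Plau above it. Of 12 myeloid markers, Lyz2 rose by 0.54 and C1qa by 0.51, while Fcgr3 passed as lower at -0.67 and Itgam at -2.03, with a list median of -0.095 and 10.5% of all features passing. Without ras 24 h replicate 1, where Itgam was -9.13, the means of Itgam, Fcgr3 and C1qa were -0.60, -0.43 and 0.27. Of 12 keratinocyte markers Itgb4 rose by 0.51, and the list median was 0.047. Of 9 fibroblast markers 0 passed in limma, 1 had an unadjusted p under 0.05, and their median was -0.079. Each of these calls was lost without ras 24 h replicate 1, the array with the widest spread, and without at least 1 other. The part of these changes in the F3 and Plau responses was not tested.

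Genes whose pattern was most like each member were taken by Pearson r over the 8 group means among 6794 other named genes, as a description over 8 points that share arrays. For F3 these were Wrn (0.962), Rc3h1, Trgv1, Tfb1m and Col22a1 (0.939). Their means were lowest in ras cells at 24 h, as F3's was, and those of Wrn, Trgv1, Tfb1m and Col22a1 were below 0 in every group, where F3 was below 0 in 1. Those of Wrn, Rc3h1, Trgv1 and Tfb1m were next lowest in primary cells at 6 h. These groups hold the arrays of widest and next widest spread, ras 24 h replicate 1 and primary 6 h replicate 1. F3 was -0.45 and 0.91 on them, and their part in the likeness was not tested. For Plau they were Zfp943 (0.978), Foxa1, Lamp2, Chrnb2 and Cd81 (0.955). For Serpinb2 they were Nme4 (0.986), Lrrc73, Lgals7, Krt19 and Prss32 (0.960). Lgals7 and Krt19, which encode a galectin and a keratin, averaged -0.51 and -0.41 in ras cells at 48 h, against -2.00 and -1.80 in primary cells.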

How the data were processed

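RNA of TGF-β1 treated and untreated mouse keratinocytes was hybridised together on 56 2-colour arrays. The table deposited by the authors holds 1 log ratio per array for 9596 probes, with 0 missing values. The values were taken as log2 ratios of channel 2, treated per the labels, over channel 1, untreated per the labels. Neither the log base nor the direction is stated in the sources used here, so the direction is likely rather than given, and scanning, background correction and normalization are not given either. Spot brightness was not used, so the signal behind a ratio is unknown.

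Of the probes, 7486 had 1 gene symbol in the platform annotation, 483 several and 1627 none, and 7395 matched a RefSeq gene. Probes with 1 symbol were averaged per gene, which gave 6795 named genes. Each probe with several symbols or none was kept as a feature of its own, which made 8905 features. Each array was centred on the median of its features. The 45 Balb/c arrays with treated RNA in Cy5 were fitted together as 8 groups with limma 3.58.1 (lmFit and eBayes, R 4.3.3), two-sided, with Benjamini-Hochberg adjustment over all features and a threshold of 0.05. The script was tested on simulated data. The number of arrays limits the precision.

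The 3 genes, the lists and the rule for named genes were chosen with earlier results of these data known. Named from the lists were the genes that passed in any response or ras minus primary difference, up to 6 per list and direction by adjusted p, and Plat, Plaur, Plg, Tfpi, Thbd and F2r in any case. For likeness, the 5 genes of highest Pearson r per gene were named. Egr3 is the only factor named from its list. Replicate numbers in the titles were not used to pair the arrays. Of 19 pairs of ras and primary arrays with the same number and time, 5 had deviations that correlated above 0.1. The ras arrays of 1 h replicates 2, 4, 5 and 6 and of 48 h replicate 1 were best matched to their own number. Each lay in the same run as its match, so some pairing at 1 h is possible. Alternatives covered the reversed arrays, centring, scaling, array weights, blocks, robust fitting, separate fits and leaving out arrays.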

Additional observations from a re-analysis of the deposited data

Results flagged for a closer look

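Of 21 sets of arrays tested (3 genes in groups of 4 or more), 3 held a single array far from the rest, where chance gives about 1 in 20. Plau on ras 6 h replicate 6 was -0.57, with the nearest array at 0.24 (n = 7). F3 on ras 24 h replicate 5 was -1.45, with the nearest at -0.49 (n = 6), and it has the sign of the other 5. F3 on primary 6 h replicate 4 was -1.83, with the nearest at -0.22 (n = 7).

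The F3 response at 24 h was below 0 on every ras array and above 0 on every primary array, with a difference of -1.33 between the means over 12 arrays. The difference did not pass an adjusted p of 0.05 in limma's main setting and passed with robust regression and array weights. Since F3 was chosen with this response known, neither outcome is read as a test.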

How the results depend on the processing

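Of the alternatives, the treatment of the 5 reversed arrays moved most values of the primary 48 h group, and the cause was not tested. With them as deposited, Serpinb2 in primary cells at 48 h turned to 0.18, F3 there was 0.53, the Serpinb2 ras minus primary difference at 48 h was -0.43, and 8 calls were made among the 40 plasminogen and coagulation genes in place of 13. In that setting 0 of the 6 calls of the 3 genes in limma were made. With the sign turned, F3 there was 0.63, Plau there -0.0030, the Serpinb2 difference 1.51, and 6 calls were made. With a dye term as well, these were 0.57, -0.048, 1.44 and 3 calls, with Serpinb2 in primary cells at 48 h at -1.94. With that term F3 in ras cells was 0.93 at 1 h, which did not pass, and 1.17 at 6 h, which did. In primary cells F3 was then 0.29 at 1 h and -0.053 at 6 h. F3 in primary cells at 48 h was 0.75 with arrays scaled to 1 spread and 0.86 with the runs of experiment numbers as a random block.

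Over the 40 genes, array weights gave 22 calls, robust regression 43 and separate fits 0, and the first and second gave 1 call each among the ras minus primary differences, where limma's main setting gave 0. Leaving out 1 array gave 8 to 16 calls in the responses, with 8 without primary 48 h replicate 1, and 0 calls in the differences.

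With the replicate block, the F3 response in ras cells at 6 h was 1.41 and the step between 6 and 24 h was -1.95, 13 calls were made, and no call of the 3 genes changed. The correlation within numbers was -0.00068 over the fit, and deviations of same-numbered arrays correlated by -0.23 to 0.39, with 5 of 19 best matched to their own number.

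When 1 array was left out, F3 in ras cells ranged over 1.23 to 1.63 at 6 h and -0.59 to -0.35 at 24 h, Plau in ras cells at 24 h over 0.72 to 1.07, and Serpinb2 in primary cells at 48 h over -1.69 to -1.22. Since each gene had 1 probe of its own, no alternative with single probes was possible. Brightness is unknown, so how far dim spots limit these ratios cannot be said.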
